A study of Mus musculus with 8 samples.

Results

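The 39 genes described here encode proteins of the nucleolus, the nuclear body in which ribosomes are made. They were chosen by their function, though with earlier results of these data known, and all 39 were found among the 27318 genes of the count tables. They were measured in single cells of the LSK gate of mouse bone marrow, which keeps cells with Sca1 and cKit on their surface and holds blood stem cells and early progenitors. The cells came from Dach1-GFP mice, aged 8 to 16 weeks per the labels, whose Dach1 gene carries a biotin tag at the end of its coding sequence followed by an IRES-GFP, the neomycin cassette having been removed with Flpe recombinase. All cells therefore carried the altered allele, which was made in C57BL/6 embryonic stem cells and descends from 1 targeted clone. No group was treated, and marrow had been enriched with beads for cKit before the sort, so cells with little cKit were depleted from the start. Each cell was copied by CEL-seq2, a method that counts the 3′ ends of polyadenylated RNA, after the sorter had recorded its size and surface proteins.

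A ribosome begins as a long precursor RNA that RNA polymerase I transcribes from the ribosomal DNA. Small nucleolar ribonucleoproteins (snoRNPs) guide chemical marks onto this RNA: those of the box C/D class add methyl groups and those of the box H/ACA class turn uridine into pseudouridine. Assembly factors then cut, fold and export the precursors of the small and the large subunit, while abundant chaperones such as nucleophosmin and nucleolin organise the nucleolus. Output of this pathway is known to follow growth and division, and MYC is a well-described activator of its genes. Of the 39 genes, 7 encode nucleolar chaperones and organisers, 3 box C/D proteins, 4 box H/ACA proteins, 3 subunits of RNA polymerase I, 11 factors of the small subunit and 11 factors of the large subunit.

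Of 2987 wells with a sort record, 2712 cells passed the filters, 335 to 340 on each of 8 plates. The plates form a set of 4 named LC (replicates 1 to 4), with a median of 11586 to 13398 counts per cell, and a set of 4 named LCE (replicates 5 to 8), with 5627 to 7525. The LSK genes Kit, Ly6a, Cd34, Flt3, Hlf and Mecom summed to 1001 to 1288 CPM on each plate (counts of a gene scaled to the total counts of the plate, or of the plate and arm), while T and NK cell genes summed to at most 2.14 CPM. The labels do not say which animals supplied a plate. Each p-value therefore reflects how much the difference between arms varies over plates, and that variation may be technical. Forward scatter, which follows cell size, and CD48 were used on the LCE plates alone, while Sca1, cKit, CD135 and Dach1-GFP were used on all 8. Cells were ranked within their plate by each measure and by their total counts, counts were summed over the highest and over the lowest tercile (the arms, 111 to 113 cells each), and the arms were compared over plates. All comparisons reuse the same cells, so they are not independent of each other. The LSK genes differed between arms. By total counts they summed to 790 to 1073 CPM in the high and 1239 to 1608 in the low arm. By forward scatter it was 1019 to 1139 and 1432 to 1481, and by CD48 1061.5 to 1115 and 1424.5 to 1533. By Sca1 it was 1313.5 to 1594 and 780 to 1068.5, and by CD135 1124 to 1386 and 735 to 1161. Means were near each other by cKit (1091 and 1109) and Dach1-GFP (1092 and 1095). The part of this in the results was not tested.

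The 39 genes together gave 0.577% ± 0.025 of all counts on the LC plates and 0.389% ± 0.018 on the LCE plates (SD, n = 4 plates each), or 79.9 ± 8.65 and 26.8 ± 4.35 counts per cell. The sets were separate libraries of different depth, so the biology of the cells and the library set cannot be told apart in this difference. Npm1, the gene of nucleophosmin, averaged 1181 ± 37.6 CPM on LC plates and 841 ± 34.5 CPM on LCE plates. Ncl, the gene of nucleolin, averaged 1257 ± 64.3 and 709 ± 57.4 CPM on the same sets. These 2 genes supplied 38.6% to 42.6% of the counts of the 39 genes on a plate, and both were counted in over 97% of cells. Counts of Npm1 are uncertain, because processed copies of the gene elsewhere in the genome could share its reads.

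Below these came the box C/D scaffold genes Nop58, at 253 ± 30.1 CPM on LC plates and 201 ± 26.1 CPM on LCE plates, and Nop56, at 219 ± 28.5 and 181 ± 20.2 CPM. The most counted genes of the other roles were Nop10 (box H/ACA, 154 ± 15.6 and 118 ± 5.25 CPM), Wdr43 (small subunit, 132 ± 17.02 and 78.6 ± 4.70 CPM), Noc2l (large subunit, 113 ± 8.26 and 81.2 ± 5.57 CPM) and Polr1c, a subunit that RNA polymerases I and III share (55.8 ± 5.08 and 51.4 ± 4.64 CPM). The least counted gene was Rrp12, a factor of the small subunit, at 17.1 ± 5.02 CPM on LC plates and 8.99 ± 2.03 CPM on LCE plates, and it had a count in 15.6% and 5.92% of the cells of these sets. For most of the 39 genes a single cell thus held few or no counts, and values below are of sums over cells. Counts of 3′ ends are not divided by length, and a rank among genes also depends on how well each 3′ end was captured.

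Cells with many counts gave a larger share of them to ribosome biogenesis. The share was higher in the high than in the low tercile of total counts on 8 of 8 plates, by 0.021 to 0.108 percentage points. On the LC plates the share was 0.519% ± 0.034 in the lowest quintile of cells and 0.646% ± 0.025 in the highest, and on the LCE plates it was 0.364% ± 0.017 in the lowest and 0.426% ± 0.025 in the highest. In counts per cell this was 36.6 ± 6.79 and 153 ± 15.3 on the LC plates, and 14.3 ± 1.65 and 47.4 ± 8.77 on the LCE plates. Over all plates the share was 0.441% in the lowest quintile, 0.438% in the next, and 0.450%, 0.481% and 0.536% in the quintiles above, so the lower quintiles differed little. The counts of the 39 genes are part of each cell's total, though less than 1% of it.

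**Figure D1:**
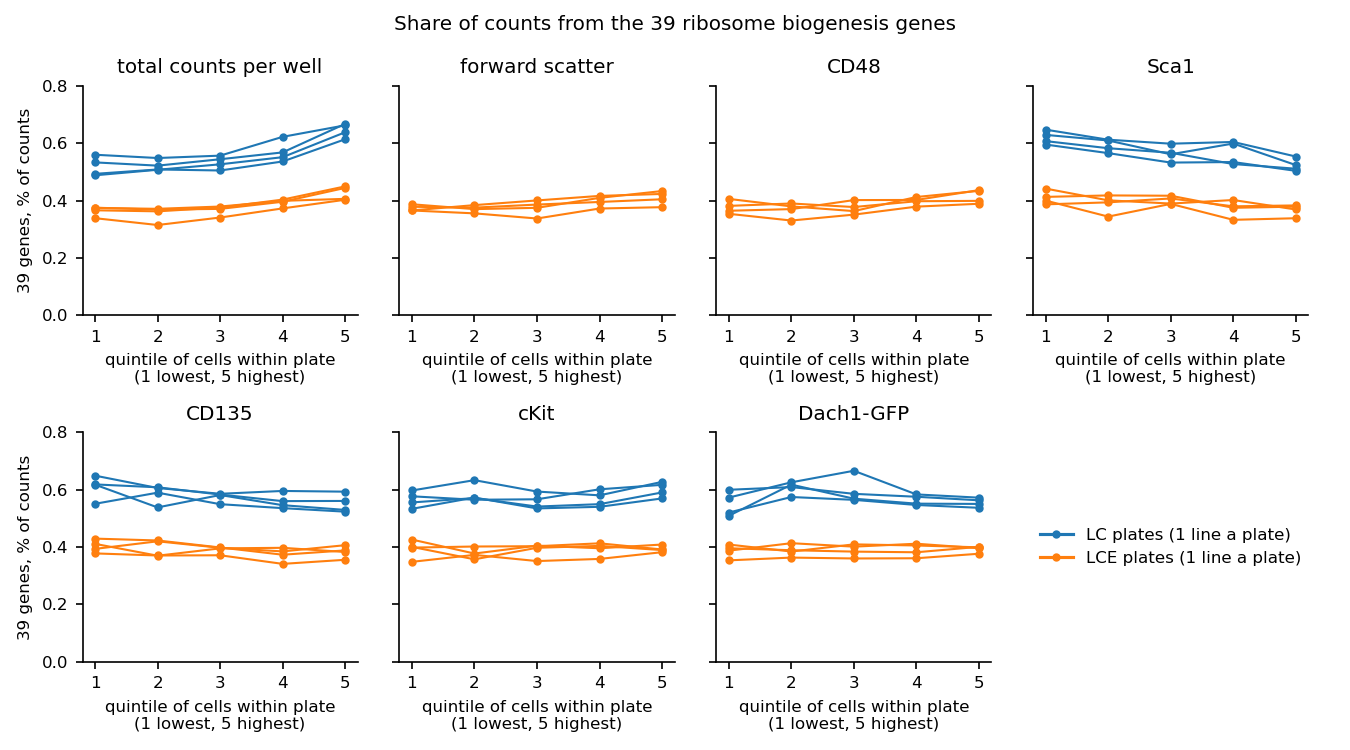
Share of a plate's counts that came from the 39 genes (y axis, percent) in the 5 quintiles of its cells by each measure (x axis), with 1 line per plate, LC and LCE plates in different colours, and forward scatter and CD48 on LCE plates alone. The highest quintile lies above the lowest on 8 of 8 plates with total counts, on 4 of 4 with forward scatter and with CD48, on 0 of 8 with Sca1, on 1 of 8 with CD135, and on 5 of 8 with cKit and with Dach1-GFP.

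Gene by gene, 18 of 39 passed the test against total counts, all of them higher in the high arm, where 17.1% of the 9819 genes tested were called higher and 17% lower. The median log2 difference was 0.30 for the 39 genes and -0.02 for all genes tested, and the difference was above 0 for 38 of 39. Called higher were 7 of 7 chaperones and organisers (Npm1, Ncl, Ddx21, Gnl3, Mybbp1a, Nolc1 and Npm3), 2 of 3 box C/D genes (Nop56 and Fbl), 3 of 4 box H/ACA genes (Nop10, Nhp2 and Gar1), 2 of 11 small subunit factors (Noc4l and Rrp12) and 4 of 11 large subunit factors (Nop16, Rrs1, Rrp1b and Ppan). None of the 3 subunits of RNA polymerase I was called, with log2 differences of 0.02 to 0.22. By role the median difference was 0.27 for chaperones and organisers, 0.53 for box C/D genes and 0.42 for box H/ACA genes. It was 0.30 for small subunit and 0.30 for large subunit factors. No other measure had so many of the 39 genes called, but none had so large a share of all genes called either (34% here, in either direction). Forward scatter and CD48 were also tested on fewer plates.

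Nop56, which holds the box C/D particle together with Nop58, had 180 CPM at the lowest, 223 at the median and 287 at the highest plate in the high arm of total counts, against 108, 148 and 210 CPM in the low arm. The arms overlapped across plates, but the high arm was above the low arm of its own plate on 8 of 8. The log2 difference was 0.53 ± 0.08 (SE), with an adjusted p of 6.11e-07. Fbl, the methyltransferase fibrillarin of the same particle, rose to 72.6 ± 18.0 CPM in the high arm, against 48.1 ± 14.8 in the low arm (SD, n = 8 plates), a log2 difference of 0.57 ± 0.12 with an adjusted p of 0.000228. Nop58 averaged a log2 difference of 0.12 ± 0.07, which did not pass (adjusted p = 0.243).

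Npm3, a small relative of nucleophosmin, had 116, 128 and 152 CPM at the lowest, median and highest plate in the high arm, against 61.6, 90.2 and 140 CPM in the low arm, and was higher on 8 of 8 plates (log2 difference 0.54 ± 0.10, adjusted p = 2.53e-05). Gar1, a protein of the box H/ACA particle, reached 90.4 ± 8.997 CPM in the high arm, against 65.1 ± 14.9 in the low arm (0.51 ± 0.11, adjusted p = 0.000181). Nhp2 of the same particle reached 133 ± 35.6 CPM, against 94.2 ± 33.3. Both were higher on 8 of 8 plates. Npm1 itself differed less, at 1082 ± 204 CPM in the high arm and 931 ± 169 in the low arm (0.23 ± 0.05, 7 of 8 plates), and Ncl less again (0.13 ± 0.05, 8 of 8 plates, adjusted p = 0.0232).

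The standard errors were larger among the less counted genes, and some of these differed by more while others, such as Polr1b (0.13 ± 0.18), did not. Noc4l, a factor of the small subunit, had 15.9, 24.01 and 50.3 CPM at the lowest, median and highest plate in the high arm, against 8.92, 15.2 and 22.8 CPM in the low arm (0.78 ± 0.19, adjusted p = 0.0014). Nop16, a factor of the large subunit, had 27.1, 35.8 and 49.2 CPM in the high arm, against 12.5, 21.1 and 35.1 CPM in the low arm (0.76 ± 0.16, adjusted p = 0.000195). Each was higher on 8 of 8 plates although its arms overlapped, and no gene of the 39 had arms free of overlap here, as 2.54% of all genes tested did. Nop14, a factor of the small subunit, was the 1 gene with a difference below 0 (-0.15), and it was not called.

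**Figure D2:**
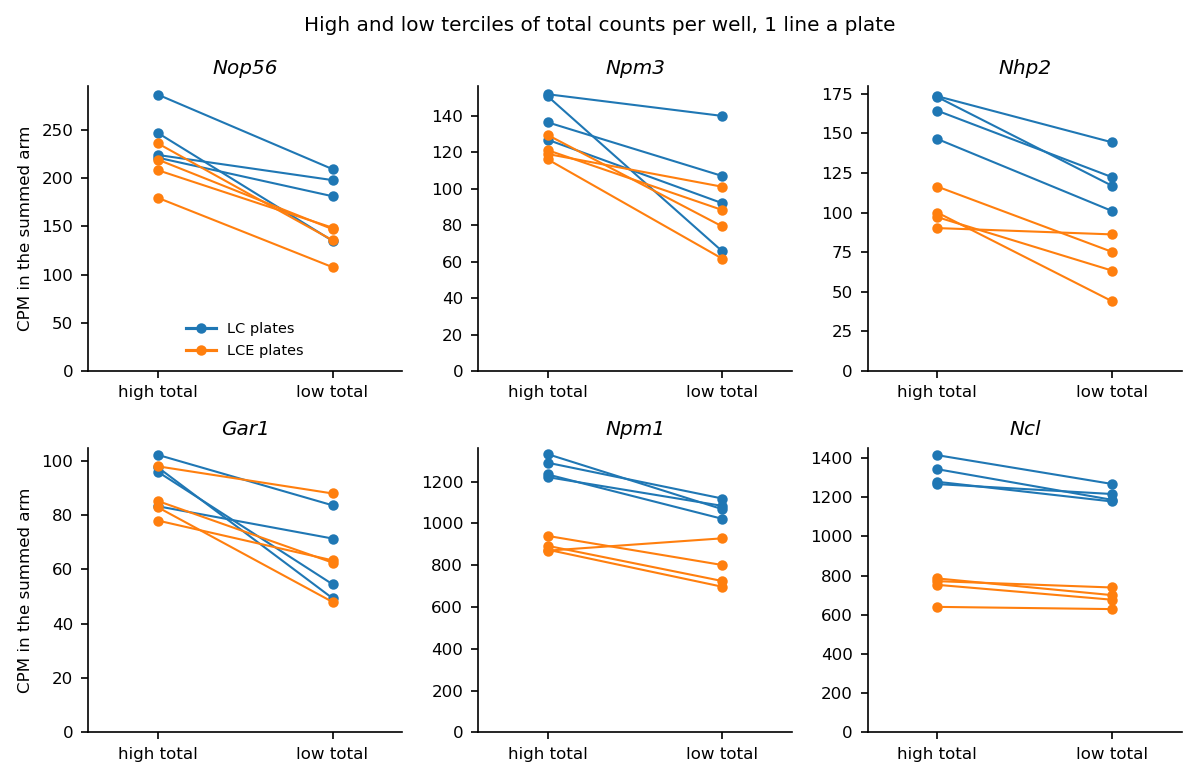
CPM (y axis) of 6 of the genes in the high and low tercile of total counts per well (x axis), each line joining the arms of 1 plate, with LC and LCE plates in different colours. Nop56, Npm3, Nhp2, Gar1 and Ncl were higher in the high arm on 8 of 8 plates and Npm1 on 7 of 8.

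Cycling genes moved with total counts too: all 16 genes of an S phase list and all 16 of a G2 and M phase list were called higher. The S phase list summed to 2158 to 2431 CPM in the high arm, against 948 to 1895 in the low arm, and the G2 and M phase list to 1049 to 2341 CPM, against 339 to 1237. Among the cells below their plate's median share of both lists, 5 of the 39 genes were called, and 16 of the 18 genes called above were still tested. Of all genes 803 were called there, with 6045 tested both there and in the main fit. The log2 differences of Nop56 and Npm3, 2 genes that kept their call, were 0.38 and 0.52. With each cell thinned to 3000 counts, 9 of the 39 genes were called, and 15 of the 18 were still tested. Of all genes 1358 were called, with 5341 tested in both fits. The values of Nop56 and Npm3 were then 0.44 and 0.46. The median spike-in count per cell on the LC plates, which does not come from the cell, was 591 ± 80.7 in the high arm and 512.5 ± 119 in the low arm (SD, n = 4). Cells with at least 0.1% of counts from genes of B cells, plasma cells, neutrophils, red cells, platelets or macrophages averaged 4.75 ± 2.76 in the high arm and 11.2 ± 4.23 in the low arm of a plate. The part of spike-in recovery and of other cells in the result was not tested.

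The start sites of these genes are of interest because MYC and its relatives bind the E-box CACGTG, which reads alike on both strands. RefSeq windows from 250 bases before to 50 after the start (build GRCm38.p6) were found for 34 of the 39 genes. Npm1, Fbl, Rrp12, Bop1 and Rrs1 are named only. The windows shown are each 5′ to 3′ on the gene's strand. They are those of Nop56, Npm3 and Nhp2, which were called with total counts, forward scatter, CD48 and Sca1, and that of Mybbp1a. Ddx21 and Npm1 were called with the same measures, but Npm1 has no window and that of Ddx21 is not shown. Mybbp1a is the 1 gene called with total counts whose window holds CACGTG (in capitals, from base 291 of the window). The windows shown lie at chr2:130274162-130274461 on the plus strand (Nop56), chr19:45749516-45749815 on the minus strand (Npm3), chr11:51619523-51619822 on the plus strand (Nhp2) and chr11:72441077-72441376 on the plus strand (Mybbp1a).
Nop56: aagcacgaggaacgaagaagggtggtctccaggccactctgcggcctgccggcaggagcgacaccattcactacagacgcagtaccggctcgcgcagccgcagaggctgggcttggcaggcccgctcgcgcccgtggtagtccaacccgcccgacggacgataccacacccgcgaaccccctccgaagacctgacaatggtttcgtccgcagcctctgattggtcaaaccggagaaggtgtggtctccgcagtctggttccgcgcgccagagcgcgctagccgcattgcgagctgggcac
Npm3: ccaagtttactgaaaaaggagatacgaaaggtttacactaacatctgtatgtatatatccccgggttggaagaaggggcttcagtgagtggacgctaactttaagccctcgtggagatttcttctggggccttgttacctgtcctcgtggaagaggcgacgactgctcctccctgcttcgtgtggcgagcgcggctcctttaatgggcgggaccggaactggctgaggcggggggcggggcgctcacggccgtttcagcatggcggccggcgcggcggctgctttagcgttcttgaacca
Nhp2: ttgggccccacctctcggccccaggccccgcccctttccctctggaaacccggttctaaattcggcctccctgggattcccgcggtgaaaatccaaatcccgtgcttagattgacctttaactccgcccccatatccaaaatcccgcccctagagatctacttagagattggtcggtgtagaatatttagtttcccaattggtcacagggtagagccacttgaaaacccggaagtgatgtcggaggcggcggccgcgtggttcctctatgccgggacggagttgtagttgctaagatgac
Mybbp1a: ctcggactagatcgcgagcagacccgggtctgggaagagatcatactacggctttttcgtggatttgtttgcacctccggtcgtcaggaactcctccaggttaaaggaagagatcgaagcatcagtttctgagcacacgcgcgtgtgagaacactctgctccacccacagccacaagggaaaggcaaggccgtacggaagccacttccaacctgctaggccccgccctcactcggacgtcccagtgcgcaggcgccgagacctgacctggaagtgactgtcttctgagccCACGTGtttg
CACGTG was in the windows of 7 of the 34 genes (20.6%): Nop2, Utp4, Utp20, Pes1, Mybbp1a, Tsr1 and Wdr43. It was in 8.09% of all 27025 genes with a window in the table and in 12.7% of the 6711 genes tested against total counts that have a window. Of the 14 genes called with total counts that have a window, 1 held it (7.14%). A match is a description of the letters, and its absence from a window says nothing about binding elsewhere.

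The genes called with forward scatter encode snoRNP proteins and chaperones, and all were higher in larger cells. Of the 37 genes tested, 7 were called, all higher in the high arm (18.9%), where 11.6% of the 9003 genes tested were called higher and 18.4% in either direction. Rrp12 and Bysl had too few counts to be tested. On the log2 scale the median difference was 0.10 for the 37 genes and -0.01 for all genes tested. The called genes were Npm1, Npm3, Ddx21 and Mybbp1a among the 7 chaperones and organisers, Nop56 among 3 box C/D genes, and Nhp2 and Gar1 among 4 box H/ACA genes. None of the 3 polymerase subunits, the 9 tested small subunit factors or the 11 large subunit factors was called. Their median differences were 0.02, 0.04 and 0.02 in that order. The medians were 0.32 for chaperones and organisers, 0.43 for box C/D genes and 0.33 for box H/ACA genes.

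Nhp2 had 95.4, 106, 90.1 and 106 CPM in the high arm of replicates 5 to 8, against 63.6, 77.5, 58.6 and 70.0 CPM in the low arm, so the arms did not overlap. Its log2 difference was 0.62 ± 0.14 (adjusted p = 0.000475). Nop56 had 214, 236, 174 and 204 CPM in the high arm of the same plates, against 163, 144, 147 and 168 CPM in the low arm, again with no overlap (0.47 ± 0.10, adjusted p = 0.000125). Npm3 had 110, 128, 119 and 126 CPM in the high arm, against 59.3, 109, 98.9 and 88.4 CPM in the low arm, separated by less than 1 CPM (0.52 ± 0.13, adjusted p = 0.00136). These 3 of 37 genes had arms free of overlap, while 13.8% of all genes tested did.

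Gar1 had 86.8, 79.9, 101 and 90.8 CPM in the high arm, against 63.6, 51.1, 84.3 and 82.9 CPM in the low arm, higher within each plate but overlapping across plates (0.42 ± 0.14, adjusted p = 0.0301). Mybbp1a, a nucleolar partner of the factor Myb, had 142, 144, 110 and 130 CPM in the high arm, against 123, 102, 77.0 and 114 CPM in the low arm (0.39 ± 0.12, adjusted p = 0.0121). Npm1 had 900, 861, 846 and 852 CPM in the high arm, against 827, 743, 793 and 891 CPM in the low arm (0.15 ± 0.05, adjusted p = 0.0194). On replicate 8 the CPM of Npm1 was lower in the high arm, and the difference there was near 0 after TMM scaling. Ncl (0.07 ± 0.05), Nop58 (0.21 ± 0.09), Nop10 (0.24 ± 0.12), Wdr43 (0.04 ± 0.14), Noc2l (0.02 ± 0.15) and Polr1c (0.02 ± 0.17) did not pass.

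All 16 S phase genes and all 16 G2 and M phase genes were called higher with forward scatter as well. The S phase list summed to 2089 to 2223 CPM in the high arm, against 1081 to 1359 in the low arm, and the G2 and M phase list to 1088 to 1509 CPM, against 357 to 687. Among cells below their plate's median share of these lists, none of the 39 genes was called with forward scatter (38 of all genes were), and Nop56 and Nhp2 had log2 differences of 0.15 and 0.16. DESeq2 called 1 of the 39 genes, the thinned counts 1, and the fit without the plate term 2. Of all genes they called 466, 676 and 651 in that order, beside 1653 in the main fit. Leaving out replicate 5 left 3 calls and leaving out replicate 6 left 4. Without the cells that had at least 0.1% of counts from other cell types (6.50 ± 1.29 per plate in the high arm and 12.2 ± 4.27 in the low arm), 4 were called.

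CD48, a surface protein that long-term stem cells lack and multipotent progenitors gain, was compared on the same 4 plates, and the genes called with it were chaperones and snoRNP genes again. Of 37 genes tested, 5 were called, all higher in CD48-high cells (13.5%), where 7.08% of the 9076 genes tested were called higher and 11.5% in either direction. They were Npm1, Npm3, Ddx21, Nop56 and Nhp2. The 37 genes had a median log2 difference of 0.17, and all genes tested -0.01. By role the medians were 0.16 for chaperones and organisers, 0.29 for box C/D genes and 0.24 for box H/ACA genes. They were 0.19 for polymerase subunits, 0.04 for small subunit factors and 0.10 for large subunit factors.

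Npm3 had 109, 136, 123 and 118 CPM in the CD48-high arm of replicates 5 to 8, against 72.8, 78.0, 91.0 and 112 CPM in the low arm (0.51 ± 0.13, adjusted p = 0.0042). Nhp2 had 104, 95.1, 96.0 and 95.1 CPM in the high arm, against 64.1, 81.3, 58.4 and 87.1 CPM in the low arm (0.47 ± 0.14, adjusted p = 0.0168), and was the 1 gene of the 37 with arms free of overlap, as 9.64% of all genes tested were. Nop56 had 196, 231, 178 and 182 CPM in the high arm, against 196, 159, 120 and 178 CPM in the low arm (0.29 ± 0.10, adjusted p = 0.0488), with almost no difference on replicates 5 and 8. Npm1 had 917, 870, 839 and 885 CPM in the high arm, against 845, 727, 797 and 855 CPM in the low arm (0.16 ± 0.05, adjusted p = 0.0191). Ncl (0.09 ± 0.05), Nop58 (0.19 ± 0.09), Nop10 (0.15 ± 0.12), Wdr43 (0.04 ± 0.15), Noc2l (0.05 ± 0.14) and Polr1c (0.17 ± 0.17) did not pass.

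With CD48, 11 of 16 S phase and 14 of 16 G2 and M phase genes were called higher; the G2 and M phase list summed to 862 to 1368 CPM in the high arm, against 491 to 810 in the low arm. The median counts per cell were 8236 ± 1256 in the CD48-high arm and 5250.5 ± 819 in the low arm (SD, n = 4 plates). B lineage genes (8 of 8 with counts) summed to 181 to 334 CPM in the high arm, against 86.3 to 192 in the low arm, and were higher on 4 of 4 plates. Red cell genes (6 of 6) summed to 82.7 to 147 CPM in the high arm, against 58.6 to 1027 in the low arm, and megakaryocyte and platelet genes (5 of 5) to 30.4 to 51.0 CPM, against 46.2 to 133. Without the cells that had at least 0.1% of counts from other cell types (7.75 ± 2.63 per plate in the high arm and 6.00 ± 1.15 in the low arm), all 5 genes stayed called. DESeq2 called none of the 39 genes, as did the fit without the plate term and the fit of cells below the median share of cycling genes. Library sizes without TMM left 2 calls, thinned counts 3, and leaving out replicate 6 or 7 left 1 or 2. Calls over all genes fell as well, from 1047 to 216 with DESeq2 and 291 without the plate term. They fell to 227 among the cells below the median share and to 517 with thinned counts.

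Sca1 ran the other way. Of 39 genes, 9 were called, all lower in the Sca1-high arm (23.1%), where 6.2% of the 10162 genes tested were called lower and 11.8% in either direction. The median log2 difference was -0.19 for the 39 genes and 0.01 for all genes tested, and 36 of 39 differences were below 0. The called genes were Ncl, Npm1, Npm3, Nolc1 and Ddx21 of the 7 chaperones and organisers, Fbl and Nop56 of the 3 box C/D genes, and Gar1 and Nhp2 of the 4 box H/ACA genes. None of the polymerase subunits or of the 22 subunit assembly factors was called. The median differences were still -0.22 for small subunit and -0.19 for large subunit factors. They were -0.17 for chaperones and organisers, -0.30 for box C/D genes and -0.22 for box H/ACA genes. The share of counts from the 39 genes was lower in the Sca1-high arm on 8 of 8 plates, with differences of -0.084 to -0.013 percentage points. On the LC plates it was 0.620% ± 0.023 in the lowest quintile by Sca1 and 0.523% ± 0.022 in the highest, and on the LCE plates 0.410% ± 0.024 in the lowest and 0.367% ± 0.020 in the highest.

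Nhp2 had 55.1, 96.8 and 137 CPM at the lowest, median and highest plate in the Sca1-high arm, against 79.3, 124 and 181 CPM in the low arm (-0.41 ± 0.08, adjusted p = 0.000223). Npm3 had 82.7, 95.0 and 133 CPM in the high arm, against 96.2, 123 and 156 CPM in the low arm (-0.37 ± 0.08, adjusted p = 0.000645). Nop56 had 124, 176 and 249 CPM in the high arm, against 174, 215 and 292 CPM in the low arm (-0.30 ± 0.06, adjusted p = 0.000261). For each of these the arms overlapped across plates, which differ by set, and the fitted difference was below 0 on 8 of 8 plates. For Nhp2 on replicate 8 the CPM were nearly equal, at 96.0 in the high arm and 95.9 in the low arm.

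Fbl averaged 56.4 ± 13.5 CPM in the Sca1-high arm and 70.5 ± 11.9 in the low arm (SD, n = 8 plates), a log2 difference of -0.30 ± 0.10 (adjusted p = 0.0432), and was lower on 8 of 8 plates. Ncl averaged 945 ± 279 CPM in the high arm and 1019 ± 313 in the low arm, a small difference (-0.11 ± 0.03, adjusted p = 0.0121) in the same direction on 8 of 8 plates. Npm1 averaged 960 ± 179 and 1038 ± 198 CPM (-0.11 ± 0.03, adjusted p = 0.0076, 7 of 8 plates). Nop58 (-0.13 ± 0.06), Nop10 (-0.15 ± 0.07), Wdr43 (-0.22 ± 0.08) and Noc2l (-0.12 ± 0.08) did not pass, and Polr1c was within 0.01 of 0 (SE 0.11).

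The Sca1-high arm had 3 of 16 S phase and 4 of 16 G2 and M phase genes called lower, and a median of 8470 ± 3012 counts per cell, against 10563 ± 3988 in the low arm. B lineage genes (8 of 8 with counts) summed to 28.4 to 161 CPM in the high arm, against 28.1 to 570 in the low arm, and cells with at least 0.1% of counts from other cell types averaged 2.75 ± 1.58 per plate in the high arm and 10.8 ± 4.06 in the low arm. Without those cells 7 of the 9 genes remained called with the same sign. The count fell to 4 with DESeq2, 3 without replicate 2 and 5 without replicate 4, and to 0 with thinned counts, without the plate term or among cells below the median share of cycling genes. Calls over all genes fell as well, from 1202 to 470 with DESeq2 and 228 with thinned counts. They fell to 16 without the plate term and to 188 among the cells below the median share.

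CD135, the FLT3 receptor that marks multipotent and lymphoid-primed progenitors, had 5 of 39 genes called, all lower in CD135-high cells (12.8%), where 5.12% of the 10441 genes tested were called lower and 11.2% in either direction. They were Ncl and Nolc1 of the chaperones and organisers, the box C/D gene Nop56, the small subunit factor Tsr1 and the large subunit factor Ebna1bp2. The median log2 difference was -0.10 for the 39 genes and 0.00 for all genes tested, with 33 of 39 below 0. No called gene had the same sign on 8 of 8 plates. The share of counts from the 39 genes was lower in the CD135-high arm on 8 of 8 plates, with differences of -0.0623 to -0.00018 percentage points.

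Nolc1, a chaperone of snoRNPs, had 68.4, 108 and 168 CPM at the lowest, median and highest plate in the CD135-high arm, against 73.3, 137 and 212 CPM in the low arm (-0.28 ± 0.07, adjusted p = 0.00587, 7 of 8 plates). Nop56 had 136, 183 and 237 CPM in the high arm, against 178, 211 and 269 CPM in the low arm (-0.21 ± 0.06, adjusted p = 0.0168, 7 of 8 plates). Ebna1bp2 had 68.1, 89.2 and 96.0 CPM in the high arm, against 66.4, 105 and 169 CPM in the low arm (-0.31 ± 0.10, adjusted p = 0.0362), and was lower on 5 of 8 plates. The arms of all 3 overlapped. Ncl averaged a difference of -0.10 ± 0.03 (adjusted p = 0.0419, 6 of 8 plates), and Npm1 -0.06 ± 0.03, which did not pass, as Nop58 (-0.06 ± 0.06), Nop10 (-0.09 ± 0.07), Wdr43 (-0.02 ± 0.08), Noc2l (0.07 ± 0.09) and Polr1c (0.22 ± 0.11) did not.

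Genes of the finished ribosome went the other way with CD135: of 85 genes with ribosomal protein symbols, 23 were called higher and 0 lower in the CD135-high arm, where 6.05% of all genes tested were called higher. Rps24, a protein of the small subunit, had 2296 ± 221 CPM in the high arm and 1987 ± 256 in the low arm (0.23 ± 0.03, adjusted p = 4.69e-09). The total counts per cell were near each other, with medians of 9668 ± 3446 in the CD135-high and 9207 ± 3479 in the CD135-low arm. Marker genes of other cells moved with this measure. Megakaryocyte and platelet genes (5 of 5 with counts) summed to 15.7 to 42.5 CPM in the high arm, against 58.1 to 167 in the low arm. Over all plates 6 cells had at least 0.1% of counts from this list, and whether LSK cells gave these counts was not tested. Cells with at least 0.1% of counts from other types averaged 2.25 ± 2.12 per plate in the high arm and 13.8 ± 3.58 in the low arm. All 5 genes remained called without those cells. DESeq2 called none of the 39 genes, a split at the plate median in place of terciles 1, and leaving out replicate 2, 3, 4 or 5 left 1, 2, 2 or 3. Of all genes DESeq2 called 605, beside 1167 in the main fit.

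For cKit, the stem cell factor receptor, edgeR called none of the 39 genes, while 3.66% of the 10451 genes tested were called in either direction. At an unadjusted p below 0.05 there were 4, and DESeq2 called 0. The median log2 difference was 0.03. The lowest adjusted p belonged to Gar1, with 69.6, 91.5 and 101 CPM at the lowest, median and highest plate in the cKit-high arm, against 60.4, 71.5 and 101 CPM in the low arm (0.25 ± 0.09, adjusted p = 0.145), and it was called when a split at the plate median replaced terciles. Ebna1bp2 (-0.19 ± 0.08, adjusted p = 0.241) and Polr1c (0.24 ± 0.11, adjusted p = 0.330) came next. Npm1 (0.01 ± 0.03), Ncl (-0.03 ± 0.03), Nop56 (0.02 ± 0.06) and Nop58 (0.08 ± 0.05) were near 0, as were Nop10 (0.03 ± 0.08), Wdr43 (-0.05 ± 0.08) and Noc2l (0.01 ± 0.08). G2 and M phase genes did differ by cKit, with 14 of 16 called higher and a median log2 difference of 0.55, against 1 of 16 S phase genes.

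For Dach1-GFP, the reporter of Dach1 transcription, edgeR also called none of the 39 genes between GFP-low and GFP-high cells, while 7.74% of the 10312 genes tested were called. At an unadjusted p below 0.05 there was 1, and DESeq2 called 0. The median log2 difference, low minus high, was 0.03, with 21 genes above and 18 below 0. It was 0.05 on the LC plates and -0.09 on the LCE plates, and none of the 39 genes passed the test between sets. From the lowest to the highest quintile by GFP, the share on LC plates was 0.551% ± 0.043, 0.607% ± 0.023, 0.597% ± 0.047, 0.565% ± 0.018 and 0.556% ± 0.015. On the LCE plates the quintile means lay at 0.387% to 0.393%. Differences among quintiles were not tested. Npm1 had 799, 1013 and 1252 CPM at the lowest, median and highest plate in the GFP-low arm, against 765, 989 and 1158 CPM in the GFP-high arm (0.07 ± 0.03, adjusted p = 0.127), and it was called when a split at the plate median replaced terciles (0.09 ± 0.02) and on the LC plates alone (0.12 ± 0.03). Tsr1 had 29.4, 40.6 and 47.4 CPM in the GFP-low arm, against 31.7, 46.2 and 57.4 CPM in the GFP-high arm (-0.25 ± 0.12, adjusted p = 0.292). Nhp2 (0.13 ± 0.08), Nop56 (0.07 ± 0.06), Ncl (0.03 ± 0.03), Nop58 (-0.02 ± 0.06), Nop10 (-0.01 ± 0.08), Wdr43 (0.13 ± 0.08) and Polr1c (-0.05 ± 0.12) did not pass. Cells with at least 0.1% of counts from other cell types numbered 122 in GFP-low arms and 22 in GFP-high arms over all plates, and B lineage genes summed to 28.7 to 786 CPM in the low arm, against 21.1 to 148 in the high arm; their part in the result was not tested.

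**Figure D3:**
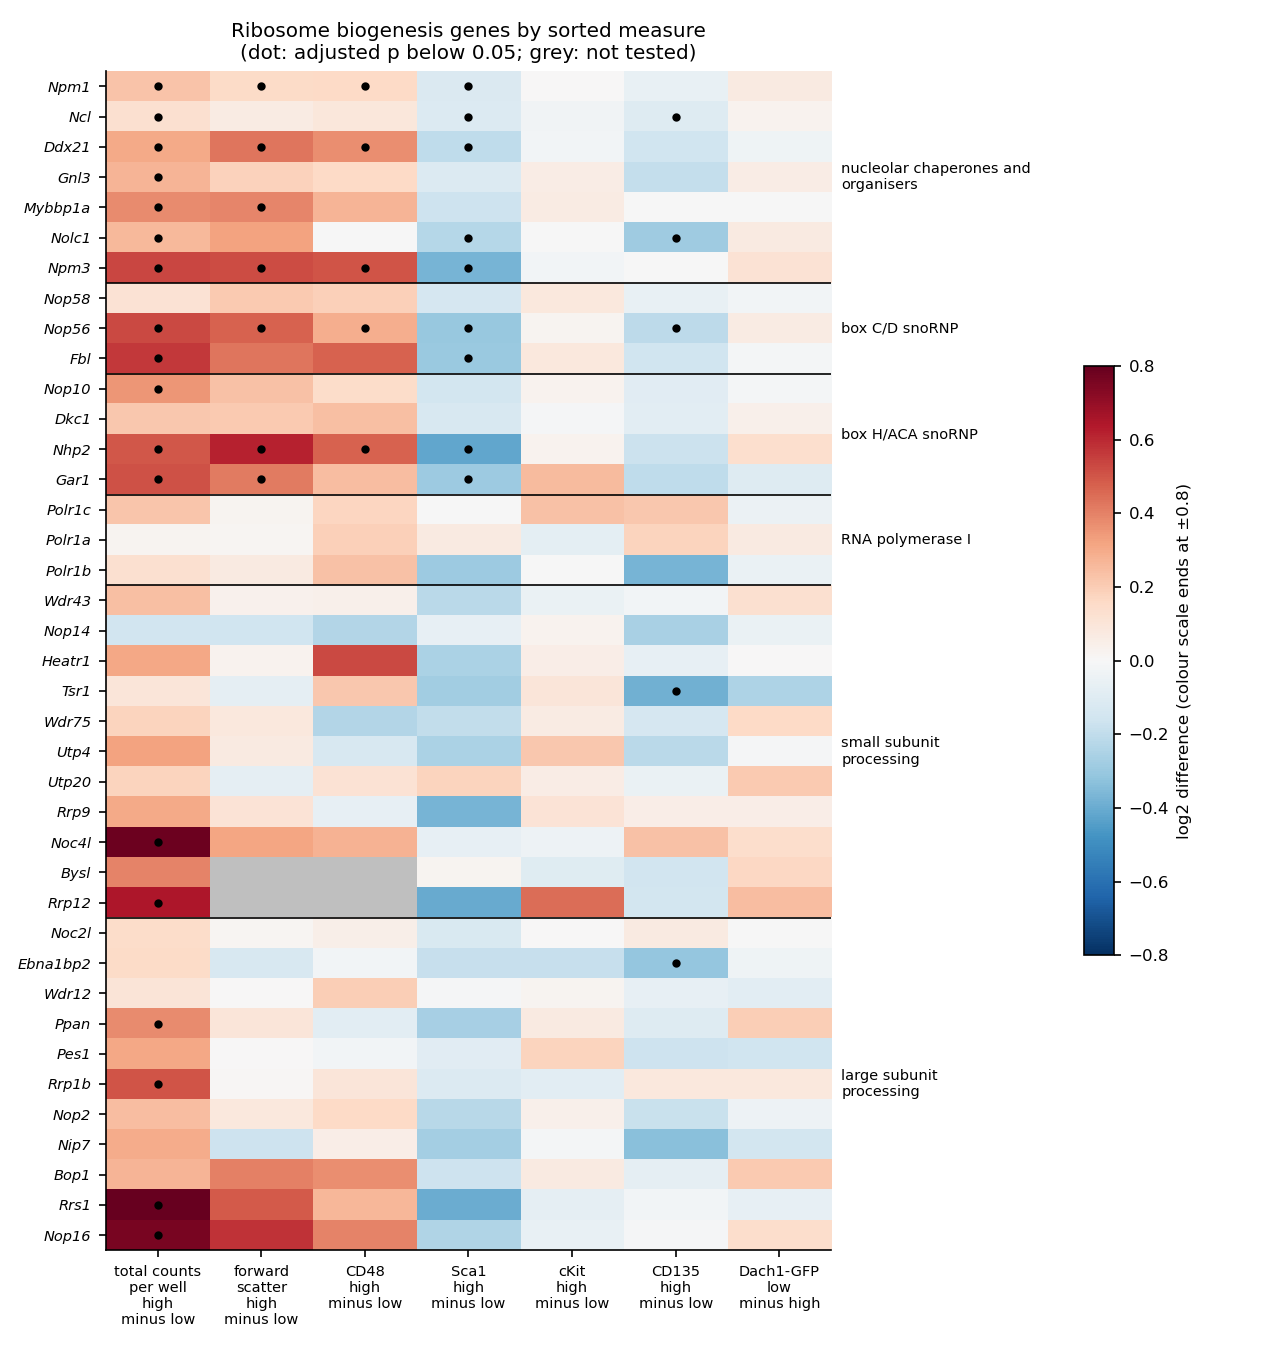
Log2 differences of the 39 genes (rows, grouped by role) between the arms of each measure (columns), high minus low except for Dach1-GFP, which is low minus high, with a dot where the adjusted p was below 0.05 and grey where a gene was not tested. The dots of forward scatter, CD48 and Sca1 fall on chaperones and snoRNP genes, those of total counts and CD135 also on subunit factors, and the columns of cKit and Dach1-GFP have none. A missing dot does not by itself mean a small difference. By forward scatter the medians were 0.04 for small subunit factors, 0.02 for large subunit factors and 0.02 for polymerase subunits. The other roles had 0.32 (chaperones and organisers), 0.43 (box C/D) and 0.33 (box H/ACA). By Sca1 the medians were -0.22 for small subunit and -0.19 for large subunit factors. They were -0.17 for chaperones and organisers, -0.30 for box C/D genes and -0.22 for box H/ACA genes.

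Over all 7 comparisons, 20 of the 39 genes were called at least once, 19 never, and 8 in 3 or more. The matching shares of all genes are not given here, so these counts have no background. With total counts alone, 34% of all genes tested were called in either direction. Nop56 was called in 5 of the 7, the most of any of them. Polr1a and Polr1b, the largest subunits of RNA polymerase I, and Polr1c were among those never called, and Polr1b was counted at 29.7 ± 4.66 CPM on LC plates and 19.5 ± 3.13 CPM on LCE plates. The PeBoW genes Pes1, Bop1 and Wdr12, which encode a complex of the large subunit, were not called in any comparison either.

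The measures are not independent of total counts. Within a plate, the rank correlation of total counts was 0.617 to 0.714 with forward scatter, 0.47 to 0.61 with CD48 and -0.302 to -0.161 with Sca1 across cells of 1 library each, given as a description. Each measure was therefore also fitted beside total counts, on sums split at the plate medians of both. With total counts in the fit, no measure had a gene of the 39 called by edgeR, where the background in either direction was 3.32% for forward scatter, 1.77% for CD48, 3.44% for Sca1, 7.5% for CD135, 2.13% for cKit and 5.75% for Dach1-GFP. At an unadjusted p below 0.05 there were 3, 2, 7, 5, 2 and 3 of the genes tested in these fits.

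Between cells above and below the plate median, the median difference by forward scatter was 0.09 with total counts in the fit, against 0.15 for forward scatter alone. For CD48 the medians were 0.05 with total counts in the fit and 0.16 alone, and for Sca1 -0.10 and -0.17. For CD135 both were -0.08. Single genes kept their sign: with total counts in the fit, Nhp2 had 0.41 ± 0.13 by forward scatter (adjusted p = 0.0730), Nop56 had -0.17 ± 0.06 by Sca1 (adjusted p = 0.0724), and Nop56 had -0.16 ± 0.06 by CD135 (adjusted p = 0.0721). These p-values missed the threshold, which does not show that a measure had no effect beside total counts.

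Calls with total counts were also read beside each measure. With forward scatter in the fit, 4 of 36 genes tested were called higher with total counts (Nop10, Nop56, Npm1 and Npm3), where 7.29% of all genes were, and with CD48 in the fit 7 of 36, where 9.61% were. Beside Sca1 there were 21 of 39 (16.8% of all genes), and beside cKit, CD135 or Dach1-GFP 22 of 39 each (16.8%, 17% and 17.1% of all genes). Nop56 had a total count effect of 0.43 ± 0.09 beside forward scatter (adjusted p = 0.0005) and 0.48 ± 0.09 beside CD48. Fitted together on the LCE plates, forward scatter and CD48 gave 4 genes called by forward scatter (Ddx21, Nhp2, Nop56 and Npm3, all higher, as were 7.2% of all genes) and 0 by CD48 (4.78% of all genes in either direction), where 6 of 36 had an unadjusted p below 0.05. Nop56 then had 0.31 ± 0.09 by forward scatter and 0.18 ± 0.09 by CD48, values whose difference was not tested.

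**Figure D4:**
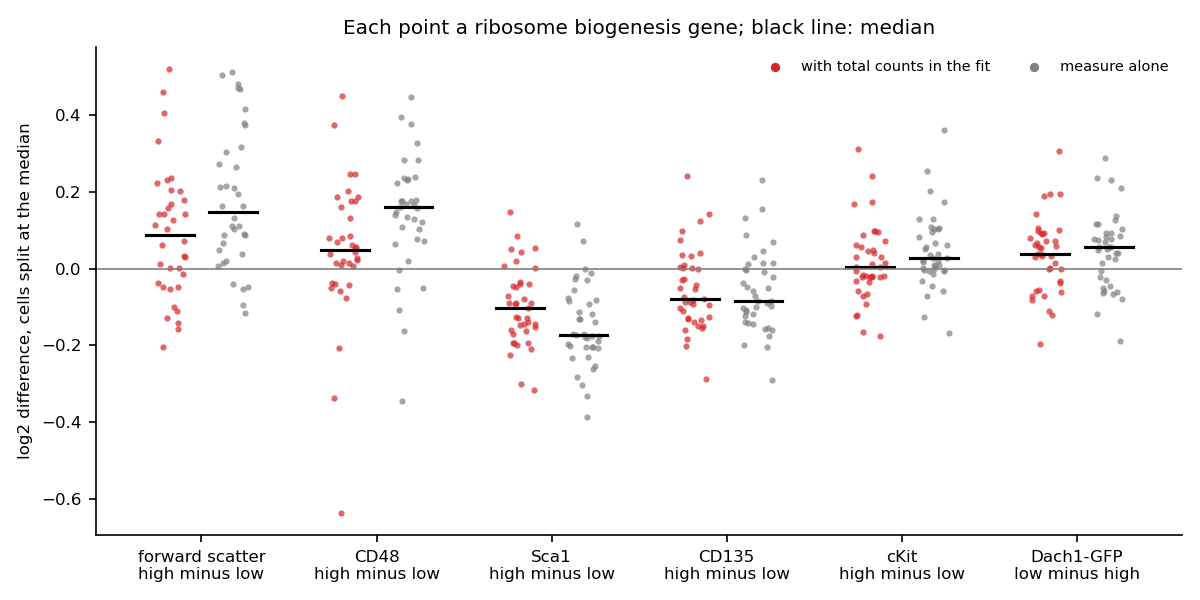
Log2 differences of the genes tested in both fits (points, y axis) between the cells above and below the plate median of each of 6 measures (x axis), with total counts in the fit on the left and the measure alone on the right of each pair, and black bars at the medians. The medians by forward scatter, CD48 and Sca1 lie nearer 0 with total counts in the fit (0.09, 0.05 and -0.10) than alone (0.15, 0.16 and -0.17).

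The 2 sets of plates were also fitted apart for the measures they share. With total counts, 15 of 39 genes were called on the LC plates and 14 of 37 on the LCE plates, all higher, where 22% and 24.1% of genes tested were called in either direction. With Sca1, 7 genes were called lower on the LC plates (background 7.13%) and 0 on the LCE plates (background 3.15%), with medians of -0.19 and -0.09. Nop56, for example, differed by -0.33 ± 0.07 on LC plates and -0.25 ± 0.10 on LCE plates, and the test of the difference between sets gave an adjusted p of 0.964. Over all genes tested, such differences between sets passed for 1.5% with total counts, 0.128% with Sca1, 0.124% with cKit, 0.642% with CD135 and 0.0873% with Dach1-GFP. Of 195 differences of the 39 genes, 1 passed: Npm3 by CD135, with -0.22 ± 0.09 on LC plates and 0.39 ± 0.12 on LCE plates (difference -0.63 ± 0.15, adjusted p = 0.0313), a call that was lost when replicate 1, 2, 5, 6 or 8 was left out.

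Other genes of the pathway, from lists by function, were compared for context. With total counts, 4 of 17 further RNA polymerase I genes, 7 of 41 tested small subunit factors, 7 of 46 large subunit factors, 3 of 10 snoRNP assembly genes and 2 of 13 exosome genes were called higher, and 2 large subunit factors lower. Over all genes tested 17.1% were called higher, so the shares of the small subunit, large subunit and exosome lists were at or below that of all genes. Snu13, which binds the guide RNA of box C/D particles, had 160 ± 22.7 CPM in the high arm and 118 ± 29.7 in the low arm (0.44 ± 0.09, adjusted p = 0.000102). Exosc8, a subunit of the RNA exosome that trims precursor RNA, had 74.5 ± 10.2 and 50.2 ± 7.67 CPM (0.57 ± 0.11). The median log2 differences of these 5 lists were 0.02, 0.18, 0.19, 0.23 and 0.23 in that order, beside 0.30 for the 39 genes.

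With forward scatter the same lists had 3 of 17, 2 of 39, 0 of 44, 2 of 9 and 2 of 13 tested genes called higher and 0 lower, beside 11.6% of all genes called higher, and with CD48 2 of 17, 0 of 40, 0 of 44, 1 of 9 and 1 of 13, beside 7.08%. Taf1d, a subunit of the factor that brings RNA polymerase I to its promoter, had 267 ± 49.8 CPM in the high arm of forward scatter and 211 ± 21.9 in the low arm (0.41 ± 0.09, adjusted p = 0.000235). With Sca1, 2 genes of each of the 5 lists were called lower and 0 higher, beside 6.2% of all genes called lower, among them Snu13 (-0.29 ± 0.07) and the acetyltransferase gene Nat10 (-0.50 ± 0.16). With cKit and CD135 none of the 5 lists had a call. With Dach1-GFP 1 gene was called: Tcof1, whose protein treacle serves transcription of ribosomal DNA, had 174 ± 25.1 CPM in the GFP-low arm and 144 ± 30.1 in the GFP-high arm (0.28 ± 0.07, adjusted p = 0.00286, 8 of 8 plates).

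The MYC genes themselves went in different directions. Myc had 195 ± 21.4 CPM in the high arm of total counts and 160 ± 29.2 in the low arm (0.31 ± 0.08, adjusted p = 0.00219). It also rose with CD48 (0.39 ± 0.09) and fell with Sca1, to 170 ± 18.2 CPM in the high arm, against 208 ± 16.6 in the low arm (-0.31 ± 0.06, adjusted p = 0.000383, 8 of 8 plates). Mycn, its relative, had 21.5 ± 16.8 CPM in the high arm of total counts and 64.0 ± 27.4 in the low arm (-1.75 ± 0.18), fell with forward scatter (-0.99 ± 0.17) and CD48 (-0.94 ± 0.17), and rose with Sca1 (0.56 ± 0.16). Ribosomal protein symbols were split with total counts, with 21 of 85 called higher and 14 lower, among them Rps2 (0.34 ± 0.04) and Rpl4 (-0.30 ± 0.04).

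**Figure D5:**
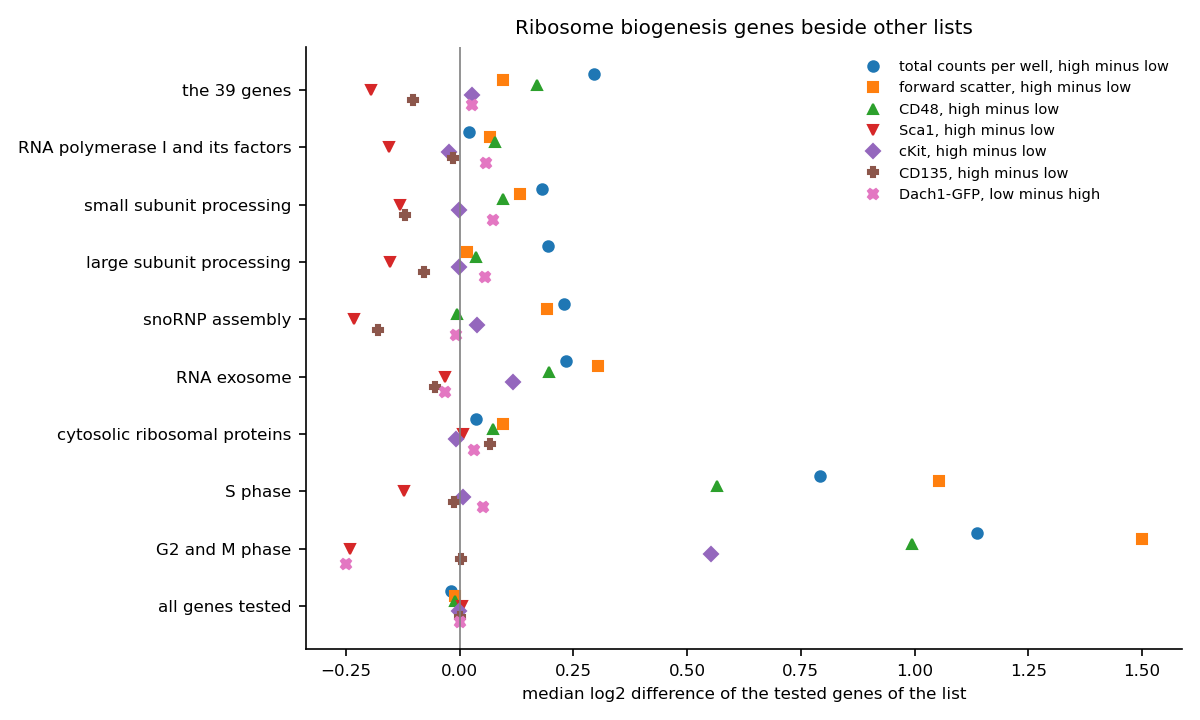
Median log2 difference of the tested genes of each list (x axis) for the 39 genes, 5 further lists of the pathway and the context lists (rows), with 1 symbol per measure, high minus low except for Dach1-GFP. The S phase and G2 and M phase lists lie farthest to the right with forward scatter (1.05 and 1.5005) and total counts (0.79 and 1.14), and the 39 genes lie between -0.19 with Sca1 and 0.30 with total counts.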

How the data were processed

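Single cells of 8 plates (LC and LCE, 4 each) were sequenced with CEL-seq2, in which each well has its own barcode. Raw counts per gene and well were deposited by the authors, with a sort record per well whose intensity values are the sorter's linear readings as deposited. Per the submitters' processing notes the build was GRCh38, a human build, while the gene IDs are mouse Ensembl IDs, of which 27249 of 27318 matched a symbol. Which aligner and counter were used, whether strand was read and how molecular identifiers were handled is not given in the sources used here. LCE sort records carry the descriptor Dach1GFP_SK although their titles say LSK.

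Wells with a sort record, at least 1000 counts, at least 500 genes and under 20% mitochondrial counts were kept. Total counts per plate were 2091816 to 5192543, and spike-in RNA added 3.25% to 4.35% on the LC plates and is not in the LCE tables used here. Large forward scatter values are written to 3 digits, and ties were kept in well order. The same well barcodes serve all plates (331 kept wells are named alike on all 8), so cells were told apart by plate. Doublets were not called.

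Cells were ranked within a plate, and counts were summed per plate for the highest and the lowest tercile. The sums were compared with edgeR 4.0.16 in R 4.3.3 (filterByExpr by group, TMM scaling, quasi-likelihood test, plate as a block), with Benjamini-Hochberg adjustment over all genes tested and a threshold of 0.05. Every adjusted p in the text comes from these fits. A value after ± is an SE beside a log2 difference and an SD over plates beside a level. Additive fits used 4 sums per plate, split at the plate medians of both measures, so their p-values also rest on variation among sums of 1 plate. Both arms come from the same plate by design, and deviations of arms of 1 plate correlated at 0.140 to 0.418. Only the tercile fits of forward scatter and total counts were run on simulated data. The arms of a plate were drawn independently there, so without this correlation. The additive fits and the fits by plate set were not simulated, and the outcome of the check is not given here. Alternatives were DESeq2 1.42.0, no filter on low counts, library sizes without TMM, plate medians in place of terciles, no plate block, counts thinned to 3000 per cell (0 to 10 cells per plate were too shallow), cells below the median share of cycling genes, each plate set alone, cells poor in RNA of other cells, and each plate left out. Library sizes without TMM, the limit of 0.1% of counts from other cells, and leaving plates out of the additive and set fits were chosen after seeing the data. Tables were made with Python 3.11.15 (numpy 2.4.6, pandas 2.3.3, scipy 1.17.1, matplotlib 3.10.9).

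The 39 genes and all lists were chosen with earlier results of these data known. Per comparison, values are given for up to 6 genes with the largest difference among those called with 1 sign on every plate (otherwise the 3 with the lowest adjusted p), for the 4 genes with the highest mean CPM and for the most counted gene of each role. Other genes named were chosen after their values were seen, or are among the 3 largest called differences of their list.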

Additional observations from a re-analysis of the deposited data

Results flagged for a closer look

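In 3 of 83 groups of plate differences looked at, 1 plate stood far from the rest, where chance gives about 1 in 20. Npm3 differed between Sca1-high and Sca1-low cells by -0.81 (log2) on replicate 2, and by -0.38 to -0.12 on the other plates. Npm1 differed between CD135-high and CD135-low cells by 0.10 on replicate 6, and by -0.13 to -0.03 on the others. Tsr1 differed between GFP-low and GFP-high cells by 0.57 on replicate 8, and by -0.61 to -0.13 on the others.

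Of 195 differences between plate sets tested, 1 passed. The difference of Npm3 between CD135-high and CD135-low cells was lower on the LC plates than on the LCE plates by a log2 difference of -0.63.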

How the results depend on the processing

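Of the alternative values of the genes selected for naming in each comparison, 1150 stayed on the same side of the threshold, 145 lost their call and 13 gained one. Values called in neither fit count among the 1150 even where their sign changed. Where a fit called the gene, 1 value of these selected genes reversed: Npm1 by forward scatter was -0.015 among cells below the median share of cycling genes. This tally leaves out other called genes. With thinned counts, 8 of the 9 genes called with Sca1 kept their sign. The counts of the 39 genes called were as follows, beside 7 (forward scatter), 5 (CD48), 9 (Sca1), 0 (cKit), 5 (CD135), 0 (Dach1-GFP) and 18 (total counts). With DESeq2 they were 1 for forward scatter, 0 for CD48, 4 for Sca1 and 0 for CD135. With counts thinned to 3000 per cell they were 1, 3, 0 and 0 for the same measures and 9 for total counts. Without the replicate block of plates they were 2, 0, 0 and 0, and 7 for total counts. Among cells below the median share of cycling genes they were 0, 0, 0 and 0, and 5 for total counts. With cells split at the plate median they were 1 for cKit, 1 for CD135 and 1 for Dach1-GFP. The LC plates alone gave 3 for CD135 and 1 for Dach1-GFP, and the LCE plates alone 0 for Sca1 and 0 for CD135. Library sizes alone gave 2 for CD48, and leaving out cells with 0.1% of other RNA gave 4 for forward scatter. With each plate left out in turn the counts were 3 to 6 for forward scatter, 1 to 5 for CD48, 3 to 9 for Sca1, 1 to 6 for CD135, 16 to 20 for total counts, 0 to 1 for Sca1 with total counts in the fit (1 without replicate 2) and 0 to 1 for CD135 by plate set. The cause of these changes was not tested.

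Counts over all genes moved by more than 1.5 times as follows. For forward scatter 1653 became 466 with DESeq2, 676 thinned, 651 without the block, 38 among cells below the median share of cycling genes and 1088 without replicate 6. For CD48 1047 became 216, 517, 291 and 227 in these settings and 653 without replicate 8. For Sca1 1202 became 470, 228, 16 and 188, and 281 on the LCE plates. For cKit 383 became 172, 110, 10 and 34, and 177 on the LC plates. For CD135 1167 became 605, 196, 175 and 359, and 350 on the LCE plates. For Dach1-GFP 798 became 466, 266, 188 and 266, with 437 on LC plates and 506 on LCE plates. For total counts 3343 became 1358 thinned, 1424 without the block and 803 among cells below the median share of cycling genes, and 2160 on the LCE plates.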
